A study of Caenorhabditis elegans with 32 samples.

Results

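The hydrogen sulfide and cysteine metabolism genes described here are 8 genes of Caenorhabditis elegans: sqrd-1, ethe-1, cysl-1, cysl-2, cysl-3, cbs-1, cth-1 and cth-2. They were chosen by name, from the symbols that the deposited table pairs with its gene identifiers, and all 8 were found among its 46904 genes. Poly(A) RNA of whole worms was read from 32 libraries, 2 for each of 16 groups: hrde-1 mutants and wild type (WT), each with the label hypoxia or normoxia, across 4 generations, P0 and its descendants F1, F2 and F3. HRDE-1 is a nuclear Argonaute of the worm germline that takes part in inherited RNA interference, and the labels name neither the mutant allele nor the wild-type strain. All worms were raised at 20 °C, and hypoxia meant 16 h at 0.1% oxygen from the L4 stage, followed by a return to room air of about 20% oxygen. Because the labels do not say whether F1 to F3 animals were themselves exposed, hypoxia in those generations is only the name of a group. Separate cultures for the 2 libraries of a group are not stated in the labels. The p-values therefore cover only the spread between samples, which may be technical.

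Hydrogen sulfide is made in animal cells largely from cysteine and homocysteine, and it is both a signal and a poison of mitochondrial respiration. In the transsulfuration pathway cystathionine beta-synthase joins homocysteine and serine, and cystathionine gamma-lyase then releases cysteine. Mitochondria remove sulfide through sulfide:quinone oxidoreductase, which passes its electrons to the respiratory chain, and a persulfide dioxygenase acts next. In C. elegans the cysteine synthase-like protein CYSL-1 also binds the oxygen sensor EGL-9 when sulfide is high, which frees the hypoxia-inducible factor HIF-1, and sqrd-1 and cysl-2 are known in worms as genes that HIF-1 can induce.

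Leaving F2 WT normoxia aside, a library held between 9722580 and 16555982 estimated counts. That group stood apart in its construction. Each of its deposited columns, multiplied by 3, was in every gene at least as large as F1 plus F3 of WT normoxia with that replicate number, within 0.05 counts, whereas with other numbers at least 1434 genes broke the rule. The columns therefore look like means of 3 libraries, and what is left after subtraction is called the remainder below. Calls of the 8 genes in comparisons that need the group are given with the deposited columns and again with the remainder. The P0 WT normoxia libraries stood apart in their values. Their mean correlations with the other groups were 0.893 and 0.866, and the summed CPM of 11 oocyte and eggshell markers was 5873 and 4102 there, against 8599 to 20719 in the other 28 libraries. Their 9 sperm markers summed to 3.86 and 6.53 CPM, against 28 to 450 in the others. Their 10 cuticle and molting markers summed to 1022 and 1205 CPM, against 125 to 756. Every one of those markers was above 0 in at least 1 library of each group. The 2 F3 hrde-1 normoxia libraries correlated with each other at 0.931, the lowest value of any group. The hrde-1 transcript itself was at 327 to 626 CPM in 16 hrde-1 libraries and at 215 to 871 CPM in 14 WT libraries, so its level did not separate the strains. RNA of whole worms was measured, so fewer cells of a type and less RNA per cell cannot be told apart for any value below.

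In the Ensembl annotation of WBcel235, all 8 genes are protein-coding, and positions below are from that annotation. The sulfide oxidation genes lie on chromosome IV: sqrd-1 (sulfide:quinone oxidoreductase, WBGene00008538) at 14219871 to 14224440 on the plus strand, and ethe-1 (persulfide dioxygenase, WBGene00007886) at 9506936 to 9508761 on the minus strand. The cysteine synthase-like genes lie on the minus strand of 3 chromosomes. cysl-1 (WBGene00007653) is at 9952579 to 9954533 of X, cysl-2 (WBGene00010759) at 14492874 to 14494451 of II, and cysl-3 (WBGene00019962) at 3774536 to 3776136 of V. Of the transsulfuration genes, cbs-1 (cystathionine beta-synthase, WBGene00013866) is at 10054275 to 10057528 on the plus strand of X. The cystathionine gamma-lyase genes are cth-1 (WBGene00009048), at 16100680 to 16102750 on the plus strand of V, and cth-2 (WBGene00022856), at 7056184 to 7057960 on the minus strand of II. The exons of 3 members overlap those of a protein-coding gene on the opposite strand, by 36 bases for cysl-2, 74 bases for cysl-3 and 8 bases for cth-2, and no source used here says whether counting used the strand. Estimated counts of cysl-3 were not whole in any of 30 libraries, but its sum with the overlapping gene R08E5.3 was whole in 30 of 30, so reads of this pair were divided between them by estimation. cysl-3 received 71.1% to 96.7% of that sum, and its values are uncertain to that extent.

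Levels below are CPM, counts scaled to the effective size of each library. All 8 members passed the filter on low counts, with between 20 counts of cth-1 and 3195 counts of cth-2 in a library. Per kilobase of exon, the mean over 30 libraries was highest for cth-2, at 120 CPM per kb. It was 19.8 CPM per kb for cysl-2, 14.6 for cysl-3, 14.2 for cysl-1 and 12 for cbs-1. ethe-1 stood at 7.68 CPM per kb, cth-1 at 7.36 and sqrd-1 at 2.83. The 2 cystathionine gamma-lyase genes therefore sat at nearly opposite ends of the order of levels. The spread across groups was also widest for cth-1, whose group means ran from 2.95 ± 1.39 CPM in F2 WT hypoxia to 34.8 ± 7.96 CPM in P0 hrde-1 hypoxia (SD, 2 libraries each), a ratio of 11.8. That ratio was 4.30 for cth-2, 4.18 for cysl-2, 3.73 for cbs-1, 3.67 for cysl-3 and 3.43 for cysl-1. The sulfide oxidation genes varied least, with a ratio of 2.37 for sqrd-1 and 2.16 for ethe-1. With 15 groups in order of their mean, most of the 14 neighbouring pairs overlapped in their libraries, from 10 pairs for cysl-2 to 13 for sqrd-1. Most neighbours in these orders therefore did not differ beyond the spread of their libraries, as the plot of CPM by group shows.

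**Figure D1:**
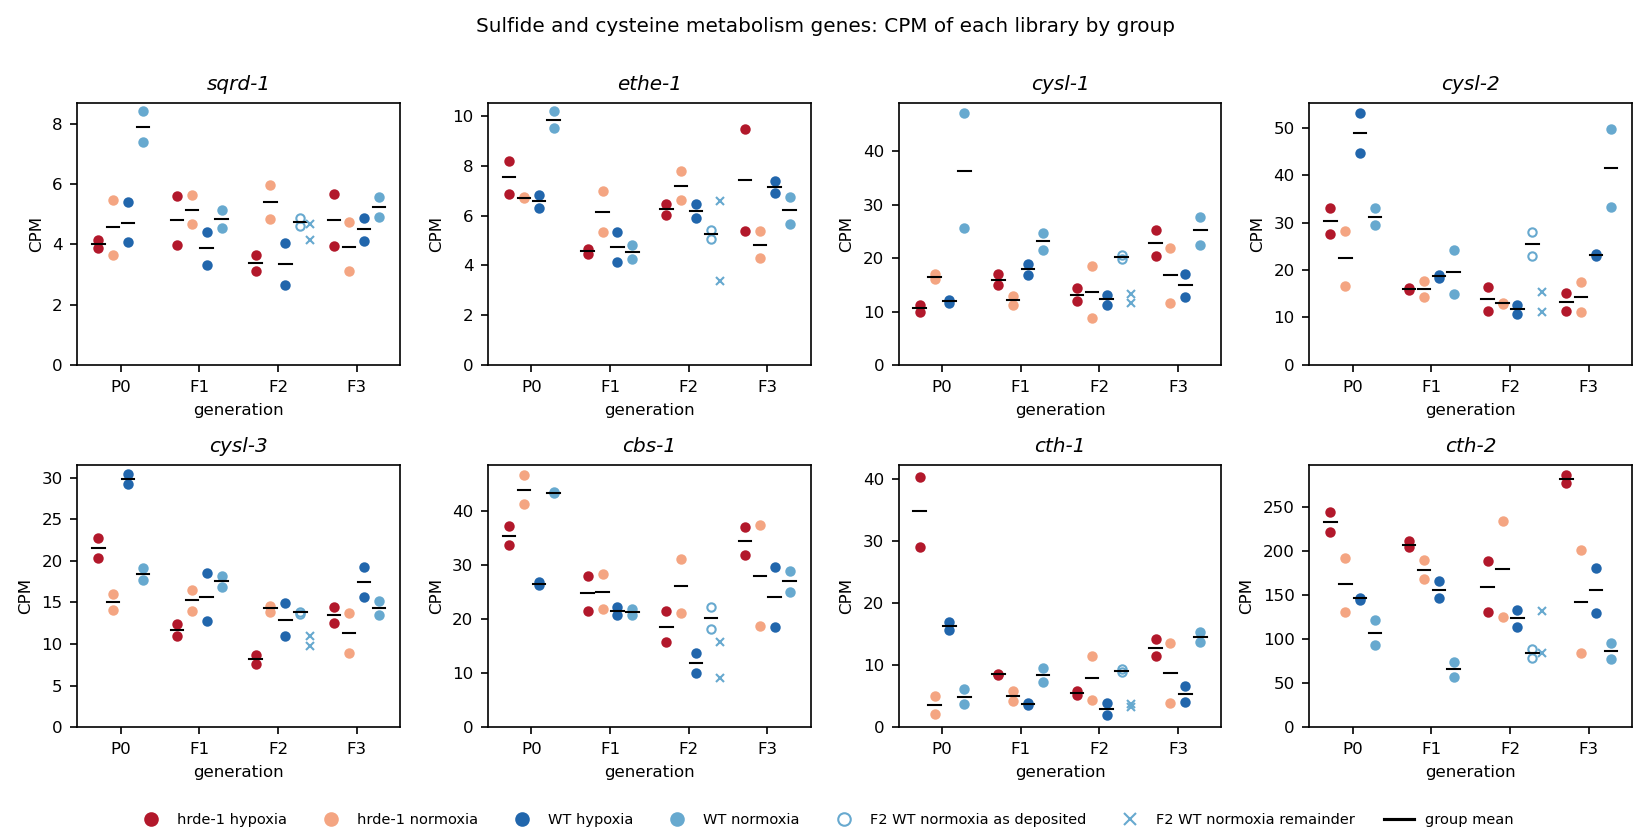
CPM of each library (dots) and group mean (black bars) for the 8 genes, by generation, strain and label. Open circles are the F2 WT normoxia columns as deposited and crosses are the remainder. cth-1 is highest in the P0 hypoxia groups, at 29.1 to 40.4 CPM in hrde-1 and 15.6 to 17.0 CPM in WT, and cysl-1 and sqrd-1 reach their highest values in P0 WT normoxia.

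In P0, cth-1 rose in hypoxia in both strains, and it was the only member that passed the test in both. In hrde-1 worms cth-1 was at 40.4 and 29.1 CPM in hypoxia, against 2.19 and 4.95 CPM in normoxia. In WT worms it was at 17.0 and 15.6 CPM in hypoxia, against 3.70 and 6.15 CPM in normoxia. In each strain both hypoxia libraries lay above both normoxia libraries. The log2 fold change was 3.22 ± 0.53 (SE) in hrde-1, a 9.30-fold difference with an adjusted p of 0.00206 by edgeR's quasi-likelihood test. In WT it was 1.68 ± 0.50, a 3.21-fold difference with an adjusted p of 0.011. The difference between the strains' responses, 1.54 ± 0.70, did not pass the test, with an adjusted p of 0.256. The WT call was lost without P0 WT normoxia replicate 1, where the value was 1.43 and the adjusted p 0.0796, in a range of 0.000427 to 0.0796 over its alternatives. The hrde-1 call was lost only when its 4 libraries were fitted alone, with a value of 3.18 and an adjusted p of 0.12, in a range of 8.81e-08 to 0.12.

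The other P0 calls were in WT. In hrde-1 1 of 8 members passed, beside 5.84% of all genes tested, and in WT 5 of 8 passed, beside 41.9% of all genes. The members' median log2 fold change was 0.24 in hrde-1 and -0.11 in WT, and the median of all genes was -0.02 and -0.14. With so many genes called in P0 WT, the share of members called there is no result about the members. As measured facts beside these values, 11 of 11 oocyte and eggshell markers and 6 of 9 sperm markers were called higher in P0 WT hypoxia than in normoxia, and 7 of 8 neuronal markers were called lower. Their part in the members' values was not tested.

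cysl-1 showed the firmest of those calls. It was at 12.2 and 11.6 CPM in P0 WT hypoxia, against 25.7 and 47.2 CPM in P0 WT normoxia, and the groups did not overlap, though the normoxia libraries differed widely. Its log2 fold change was -1.65 ± 0.32, with an adjusted p of 0.000562. The value ran from -1.96 to -1.13 over 12 alternatives, and none of them lost the call. None could leave out the P0 WT normoxia group. In hrde-1 cysl-1 was at 11.2 and 9.96 CPM in hypoxia, against 16.1 and 17.0 CPM in normoxia, again without overlap. That change, -0.71 ± 0.32, did not pass, with an adjusted p of 0.188.

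Of the other cysteine synthase-like genes, cysl-3 rose in P0 WT hypoxia and cysl-2 did not pass the test. cysl-3, a paralog of cysl-1, was at 30.4 and 29.2 CPM in P0 WT hypoxia, against 19.1 and 17.7 CPM in normoxia, with no overlap. Its log2 fold change of 0.65 ± 0.21 passed with an adjusted p of 0.0201. The call was lost without P0 WT normoxia replicate 2 (0.61, adjusted p 0.114) or P0 WT hypoxia replicate 1 (0.71, adjusted p 0.059), in a range of 0.00269 to 0.114. cysl-2, known in worms for its response to HIF-1, was at 44.7 and 53.1 CPM in P0 WT hypoxia, against 33.0 and 29.4 CPM in normoxia, and these groups did not overlap. Its change of 0.60 ± 0.27 did not pass, with an adjusted p of 0.0793. In a fit of the compared groups alone it passed, at 0.7 with an adjusted p of 0.0032. In hrde-1, cysl-2 differed by 0.37 ± 0.27 and cysl-3 by 0.46 ± 0.22, with adjusted p of 0.432 and 0.206.

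sqrd-1, the first enzyme of sulfide removal, was at 5.39 and 4.06 CPM in P0 WT hypoxia, against 7.40 and 8.40 CPM in P0 WT normoxia. The groups did not overlap, and the change of -0.78 ± 0.31 passed narrowly with an adjusted p of 0.0491. Without any 1 of the 4 libraries it did not pass. The value was -0.80 without normoxia replicate 1, -0.67 without normoxia replicate 2, -0.91 without hypoxia replicate 1 and -0.51 without hypoxia replicate 2, and the adjusted p ran from 0.025 to 0.339 over all alternatives. The change also missed the threshold under DESeq2 size factors, without the filter and with a replicate block. ethe-1, which acts after sqrd-1, was at 6.33 and 6.85 CPM in hypoxia, against 9.53 and 10.2 CPM in normoxia, a change of -0.62 ± 0.26 with an adjusted p of 0.0574. In hrde-1 neither gene differed beyond its error, at -0.25 ± 0.32 for sqrd-1 and 0.10 ± 0.26 for ethe-1.

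cbs-1, the entry enzyme of transsulfuration, was at 26.4 and 26.8 CPM in P0 WT hypoxia, against 43.4 and 43.5 CPM in normoxia. The groups did not overlap, and the change of -0.76 ± 0.28 passed with an adjusted p of 0.0336. It did not pass without any 1 of the 4 libraries, at -0.68 without normoxia replicate 1, -0.74 without normoxia replicate 2, -0.65 without hypoxia replicate 1 and -0.68 without hypoxia replicate 2, in an adjusted p range of 0.00252 to 0.181. In hrde-1 cbs-1 was at 33.8 and 37.2 CPM in hypoxia, against 41.4 and 46.7 CPM in normoxia, a change of -0.37 ± 0.27 that did not pass. cth-2, the more abundant gamma-lyase gene, differed by 0.47 ± 0.31 in hrde-1 and 0.40 ± 0.31 in WT, with adjusted p of 0.378 and 0.31. The WT difference passed in a fit of the compared groups alone, at 0.5 with an adjusted p of 0.0101. With 2 libraries a group, separation was also seen among members that did not pass. Its share over all genes was not counted, so separation alone is no result about a member.

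**Figure D2:**
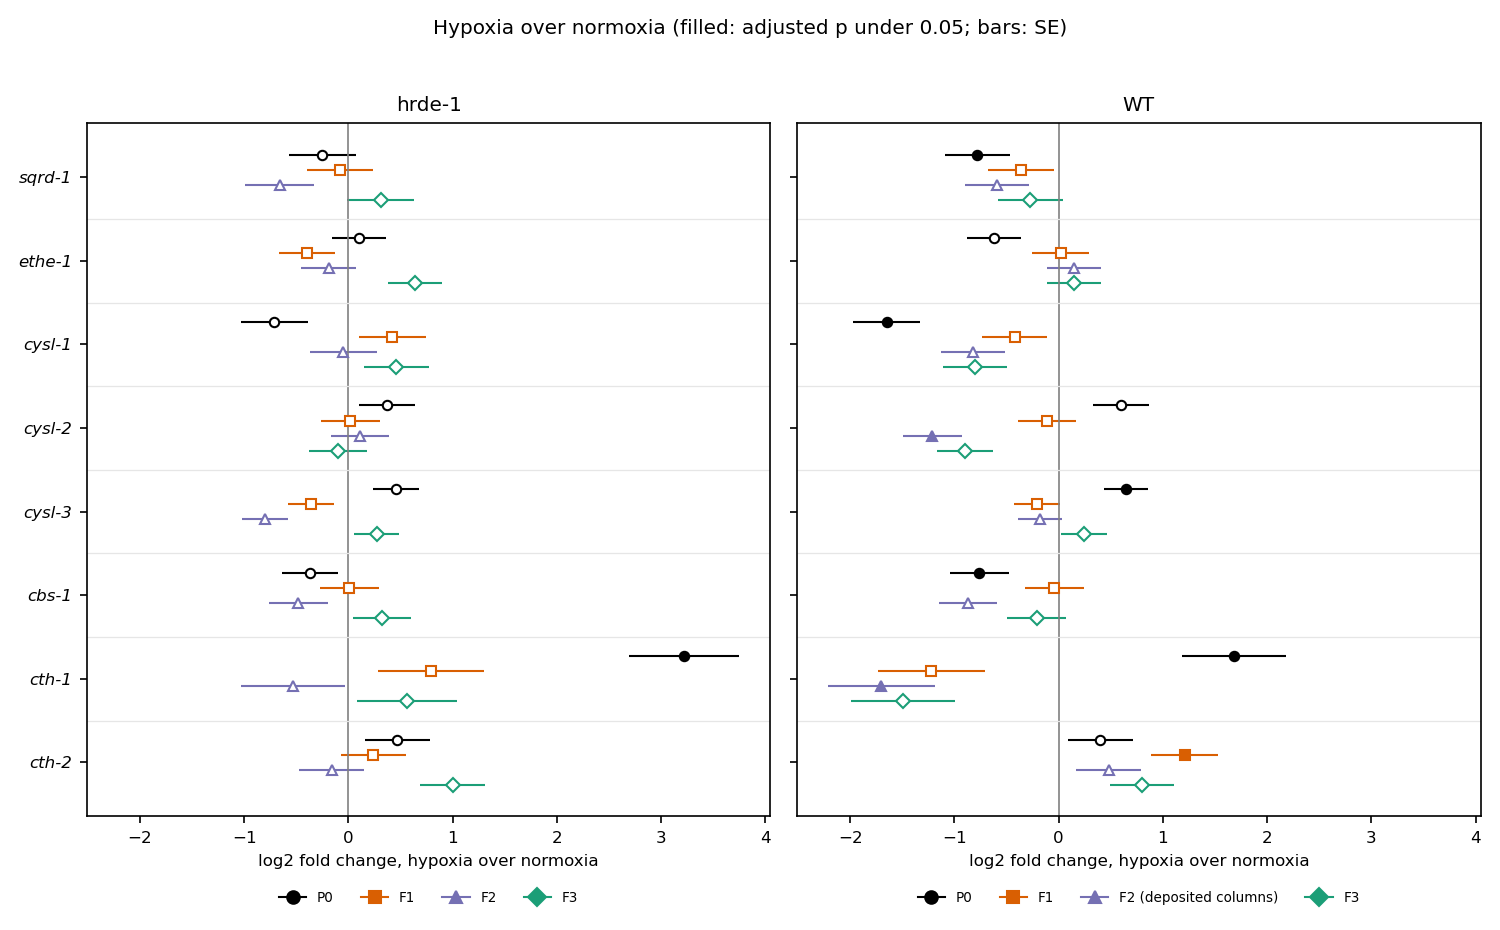
Log2 fold change of hypoxia over normoxia for the 8 genes in hrde-1 (left) and WT (right), with a marker for each generation. Bars are standard errors and filled markers have an adjusted p under 0.05. The cth-1 values for P0, 3.22 in hrde-1 and 1.68 in WT, are the farthest to the right in each panel.

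Among descendants, the hypoxia and normoxia groups of WT differed in 1 of 8 members in F1, beside 13.9% of all genes, and in 0 of 8 in F3, beside 6.62%. The F1 call was cth-2. It was at 146 and 166 CPM in F1 WT hypoxia, against 57.3 and 73.5 CPM in F1 WT normoxia, and the groups did not overlap. Its log2 fold change was 1.21 ± 0.32, with an adjusted p of 0.0141. That call was lost without F1 WT normoxia replicate 1 (1.04, adjusted p 0.172) and without F1 WT hypoxia replicate 2 (1.12, adjusted p 0.102), in a range of 6.82e-05 to 0.172. In F3 WT 4 members had an unadjusted p under 0.05 and DESeq2 called 2, cysl-2 and cth-1. A fit of the compared groups alone called 4 there: cysl-1, cysl-2, cth-1 and cth-2. cysl-2 was at 23.3 and 22.9 CPM in F3 WT hypoxia, against 33.2 and 49.7 CPM in normoxia, with a value of -0.90 ± 0.27 and an adjusted p of 0.0516. The change passed without F3 WT normoxia replicate 1, at -1.16 with an adjusted p of 0.0343.

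cth-1 had the opposite sign in WT descendants, in differences that did not pass in the main fit. It was at 3.88 and 3.55 CPM in F1 WT hypoxia, against 9.47 and 7.33 CPM in F1 WT normoxia. In F3 WT it was at 4.12 and 6.59 CPM in hypoxia, against 13.7 and 15.4 CPM in normoxia. The hypoxia libraries were below the normoxia libraries in both generations, without overlap. These differences, -1.22 ± 0.51 in F1 and -1.49 ± 0.50 in F3, did not pass, with adjusted p of 0.125 and 0.0714. In fits of the compared groups alone both passed, at -1.23 in F1 (adjusted p 0.00757) and -1.47 in F3 (adjusted p 0.0267). DESeq2 called the F3 difference, with an adjusted p of 0.0297.

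For F2 WT the result turned on the deposited columns. With them, 2 of 8 members passed, beside 7.97% of all genes. cth-1 was at 3.93 and 1.97 CPM in F2 WT hypoxia, against 8.87 and 9.30 CPM in the deposited normoxia columns, a difference of -1.70 ± 0.51 with an adjusted p of 0.0443. cysl-2 was at 10.8 and 12.7 CPM in hypoxia, against 22.9 and 28.1 CPM in those columns, a difference of -1.21 ± 0.28 with an adjusted p of 0.0149. With the remainder in their place, normoxia held 3.31 and 3.80 CPM of cth-1 and 11.2 and 15.3 CPM of cysl-2. The differences then were -0.27 ± 0.53 and -0.19 ± 0.28, and neither passed. Each of these deposited-column calls was also lost without single libraries. Without F2 WT normoxia replicate 2 or F2 WT hypoxia replicate 1 or 2, cysl-2 was at -1.01, -1.11 and -1.33. Without normoxia replicate 1 or 2 or hypoxia replicate 1 or 2, cth-1 was at -1.74, -1.62, -2.30 and -1.29. The cth-1 call was also lost under DESeq2 size factors (-1.66) and with the P0 WT normoxia group left out (-1.60). The adjusted p reached 1 for both genes over all alternatives.

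In hrde-1 descendants 0 of 8 members passed in F1, beside 8.35% of all genes, 0 of 8 in F2, beside 0%, and 0 of 8 in F3, beside 0.0129%. At an unadjusted p under 0.05 the counts were 0, 1 and 2, and DESeq2 called 0 in each of these generations. Fits of the compared groups alone called 2 members in F1 and 0 in F2 and F3. The F1 calls were cth-1 at 0.81 (adjusted p 0.0277) and cth-2 at 0.26 (adjusted p 0.0174). In F3 the 2 normoxia libraries differed widely in cth-2 and cth-1. cth-2 was at 286 and 277 CPM in F3 hrde-1 hypoxia, against 83.5 and 201 CPM in F3 hrde-1 normoxia. cth-1 was at 11.4 and 14.2 CPM in F3 hrde-1 hypoxia, against 3.85 and 13.6 CPM in normoxia, and normoxia replicate 2 held the higher value of both genes. Without that library cth-2 was at 1.76 ± 0.32 (adjusted p 0.00305), cth-1 at 1.74 ± 0.53 (adjusted p 0.0334) and cbs-1 at 0.89 ± 0.29 (adjusted p 0.0419). In the same library the sperm markers summed to 386 CPM and the cuticle and molting markers to 747 CPM, against 121 and 154 CPM in replicate 1. The part of that difference in the members' values was not tested.

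The change of the response between P0 and later generations was tested directly, as the mean response of the later generations minus that of P0. In hrde-1, where F1 to F3 entered, 1 of 8 members passed, beside 1.71% of all genes. In WT, where F1 and F3 entered, 2 of 8 passed, beside 15.3%. cth-1 passed in both strains. In hrde-1 its difference was -2.94 ± 0.59, with an adjusted p of 0.0161, and in WT it was -3.04 ± 0.61, with an adjusted p of 0.00278. The WT call held under all 20 alternatives, with values from -3.39 to -2.71. The hrde-1 call was lost without P0 hrde-1 hypoxia replicate 1 (-2.69, adjusted p 0.115) or replicate 2 (-3.16, adjusted p 0.0585), and in a fit of the compared groups alone (-2.93, adjusted p 0.14). The difference of cysl-2 was -0.36 ± 0.32 in hrde-1, which did not pass, and -1.10 ± 0.33 in WT, with an adjusted p of 0.0295. Whether these differ from each other was not tested. The WT call was lost without any 1 of 6 libraries. These were P0 WT normoxia replicate 1 (-1.19) or 2 (-0.97), P0 WT hypoxia replicate 2 (-1.05), F1 WT normoxia replicate 1 (-0.98), F3 WT normoxia replicate 2 (-1.01) and F3 WT hypoxia replicate 2 (-1.10). Its adjusted p ran from 0.00735 to 0.179. Some differences that did not pass with all libraries passed without 1 of them. In WT these were cysl-1 without P0 WT normoxia replicate 1 (1.42, against 1.04 with it) and cysl-3 without F1 WT hypoxia replicate 2 (-0.85, against -0.64 with it). In hrde-1 they were cysl-1 without F2 normoxia replicate 1 (1.20) or F3 normoxia replicate 2 (1.09), against 0.98 with all, and cysl-3 without P0 normoxia replicate 1 (-0.92) or F3 normoxia replicate 1 (-0.85) or 2 (-0.71), against -0.75. cysl-1 in WT also passed with all libraries by DESeq2 (adjusted p 0.0491) and in a fit of the compared groups alone (adjusted p 0.0196). All WT values of this test rest on the P0 WT normoxia libraries.

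Between strains, members were called by edgeR's test only in normoxia. hrde-1 worms had less cysl-1 and cysl-2 and more cth-2 than WT in some generations, and no other member passed. In P0 normoxia 1 of 8 members passed, beside 22.5% of all genes. In F1 normoxia 2 of 8 passed, beside 34.5%, and in F3 normoxia 1 of 8, beside 8.86%. Of the F2 normoxia comparisons, 2 of 8 passed with the deposited columns, beside 6.06%. The P0 and F1 shares of members called were below those of all genes, and the F3 share was near it. Those counts are therefore no result about the members, and the F2 calls did not remain with the remainder, as given below. The members' medians were -0.46, -0.13, 0.08 and -0.45 in P0, F1, F2 and F3, and those of all genes were -0.06, -0.24, -0.03 and -0.06.

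cysl-1 was at 16.1 and 17.0 CPM in P0 hrde-1 normoxia, against 25.7 and 47.2 CPM in P0 WT normoxia, and the strains differed by -1.13 ± 0.31 on the log2 scale (adjusted p 0.0138). In F1 normoxia it was at 11.3 and 13.0 CPM in hrde-1, against 24.8 and 21.6 CPM in WT, a difference of -1.01 ± 0.32 (adjusted p 0.0206). The groups did not overlap in either generation. Without P0 WT normoxia replicate 2, the highest library of this gene, the P0 change was -0.62 and did not pass, and without P0 hrde-1 normoxia replicate 1 it was -1.05 and did not pass. A fit of those 4 libraries alone gave -1.08 and an adjusted p of 0.156, and over all alternatives it ran from 0.00497 to 0.305. The F1 change did not pass without any 1 of its libraries, at -0.87 and -1.05 without WT replicate 1 and 2, and at -0.91 and -1.11 without hrde-1 replicate 1 and 2. In F3 the change was -0.64 ± 0.31, with an adjusted p of 0.221. Without F3 hrde-1 normoxia replicate 2 it passed at -1.12, and cth-1 passed as well, at -1.92 in place of -0.79. sqrd-1 in P0 normoxia, at 3.65 and 5.47 CPM in hrde-1, against 7.40 and 8.40 CPM in WT, had a change of -0.78 ± 0.31 (adjusted p 0.0757) and passed without P0 hrde-1 normoxia replicate 2, at -1.05.

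cysl-2 was at 11.2 and 17.5 CPM in F3 hrde-1 normoxia, against 33.2 and 49.7 CPM in F3 WT normoxia, and the groups were well apart. The log2 fold change was -1.59 ± 0.28, with an adjusted p of 0.00074. Every alternative kept this call except the fit of those 4 libraries alone, where it was -1.54 with an adjusted p of 0.219. In P0 and F1 the change was -0.47 ± 0.27 and -0.37 ± 0.28, and neither passed.

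cth-2 was at 168 and 189 CPM in F1 hrde-1 normoxia, against 57.3 and 73.5 CPM in F1 WT normoxia. The difference was 1.37 ± 0.32, with an adjusted p of 0.0035. Its value ran from 1.24 to 1.61 over 13 alternatives, and no alternative lost the call. The call of cth-2 between F1 WT hypoxia and normoxia uses the same F1 WT normoxia libraries, so the 2 calls are not independent. F1 WT normoxia had the lowest mean of cth-2 among the 15 groups of the main fit, 65.4 CPM. In P0 normoxia cth-2 was at 192 and 131 CPM in hrde-1, against 93.4 and 121 CPM in WT, a difference of 0.60 ± 0.31 that did not pass. In F3 it was 0.66 ± 0.31, with 83.5 and 201 CPM in hrde-1, against 95.5 and 77.0 CPM in WT. That difference passed without F3 hrde-1 normoxia replicate 1, at 1.16 with an adjusted p of 0.0122. The strains' markers also differed in these normoxia groups. In P0 10 of 11 oocyte and eggshell markers were called higher in hrde-1, and in F1 9 of 11. Of 9 sperm markers, 6 were called higher in P0 and 8 lower in F1, and of 10 cuticle and molting markers 8 were called lower in F1 and 1 higher in each generation. Their part in the members' values was not tested.

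With the deposited columns of F2 normoxia, cth-2 was at 234 and 125 CPM in hrde-1, against 78.5 and 88.6 CPM in WT, a difference of 1.06 ± 0.31 with an adjusted p of 0.0435. cysl-2 was at 13.0 and 12.9 CPM in hrde-1, against 22.9 and 28.1 CPM in WT, a difference of -1.03 ± 0.28 with an adjusted p of 0.0285. Neither call remained with the remainder. It held 84.3 and 132 CPM of cth-2, a difference of 0.76 ± 0.32, and 11.2 and 15.3 CPM of cysl-2, a difference of 0.00 ± 0.28. With the remainder cbs-1 passed in their place, at 31.2 and 21.2 CPM in hrde-1, against 9.01 and 15.7 CPM in the remainder, a difference of 1.12 ± 0.30 with an adjusted p of 0.0381. With the deposited columns, cysl-2 was also lost without any 1 of the 4 libraries, at -1.17 and -0.84 without WT replicate 1 and 2, and at -1.03 and -0.99 without hrde-1 replicate 1 and 2. cth-2 was lost without WT replicate 1 (0.97) or 2 (1.18) and without hrde-1 replicate 1 (0.54). cysl-1, at -0.61 with all libraries, passed without hrde-1 replicate 1, at -1.26. A fit of those 4 libraries alone kept neither call, at -1.0 for cysl-2 (adjusted p 0.119) and 1.08 for cth-2 (adjusted p 0.202).

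**Figure D3:**
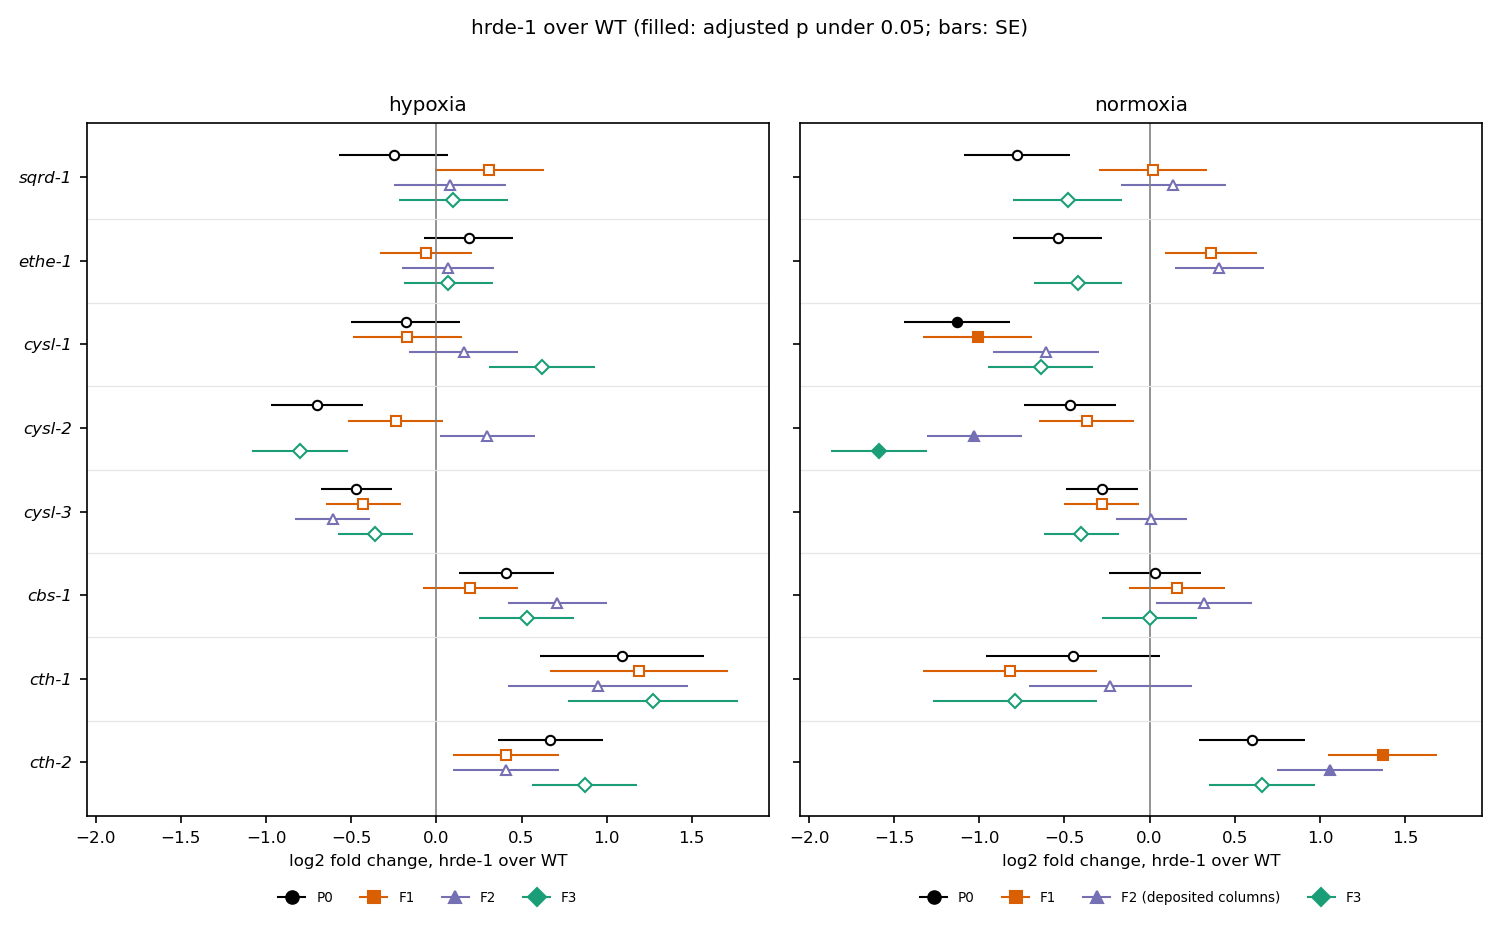
Log2 fold change of hrde-1 over WT for the 8 genes in hypoxia (left) and normoxia (right), with a marker for each generation. Bars are standard errors and filled markers have an adjusted p under 0.05. Filled markers appear only in normoxia, for cysl-1 in P0 and F1, cysl-2 in F2 and F3, and cth-2 in F1 and F2.

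In hypoxia no member passed between the strains, in any generation, by edgeR's test. Of all genes tested, 2.14% were called for P0, 1.98% for F1, 6.43% for F2 and 10.8% for F3. At an unadjusted p under 0.05 the members' counts were 4, 1, 2 and 3, and DESeq2 called 0, 0, 0 and 1. The DESeq2 call was cth-2 in F3, at 286 and 277 CPM in hrde-1, against 129 and 181 CPM in WT, with 0.91 ± 0.32 and an adjusted p of 0.0355 by DESeq2, against 0.87 ± 0.31 and 0.071 by edgeR. Fits of the compared groups alone called 4, 2, 1 and 3 members. cth-1 was higher in hrde-1 in the libraries of all 4 generations without overlap. From P0 to F3 the differences were 1.09 ± 0.48, 1.19 ± 0.52, 0.95 ± 0.53 and 1.27 ± 0.50, and their adjusted p were 0.354, 0.382, 0.335 and 0.0934. cysl-3 was lower in hrde-1 without overlap in all 4 generations, by values between -0.61 ± 0.22 in F2 and -0.36 ± 0.22 in F3, and none of these passed. How often all genes separate in this way was not counted, so the lack of overlap is no result about cth-1 or cysl-3.

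Whether the response to hypoxia differed between the strains was tested as an interaction. No member passed, in a total of 32 tests, 7 of which had an unadjusted p under 0.05. Over all genes, 0.328% were called for P0, 12.6% for F1, 0.225% for F2 and 0.657% for F3. DESeq2 called 1, cth-1 in F1, at 1.95 with an adjusted p of 0.0401, where edgeR gave 2.01 ± 0.72 and 0.0673. Fits of the compared groups alone called 3, all in F1: cth-1, cysl-1 and cth-2. In F3 the interaction of cth-1 was 2.06 ± 0.69 with an adjusted p of 0.146. Without F3 hrde-1 normoxia replicate 2 it was 3.20 ± 0.67 with an adjusted p of 0.00297, and cysl-1 (1.75) and cbs-1 (1.07) passed as well. These interactions share their normoxia groups with the strain comparisons above.

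Members were called between later generations and P0 in 11 of 32 tests, and 10 of those 11 calls were lower in later generations. The share of all genes called lower is not given here, so the direction of these calls is no result about the members as a set. In hypoxia 3 of 8 members passed in hrde-1, beside 18.4% of all genes, and 3 of 8 in WT, beside 9.11%. In normoxia 2 of 8 passed in hrde-1, beside 24.3%, and 3 of 8 in WT, beside 44.3%. These normoxia counts were near or below the share of all genes and are no result about the members. The members' medians were -0.40, -0.43, -0.23 and -0.55 in the same order, and those of all genes 0.00, -0.02, -0.06 and -0.08. The P0 groups that serve as the base here also entered the P0 comparisons above. In WT normoxia that base was the P0 WT normoxia group, which stood apart in its values. No alternative could leave that group out of the WT normoxia series.

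cysl-2, cysl-3 and cth-1 were the 3 hypoxia calls in each strain. cysl-2 in hrde-1 hypoxia was at 33.0 and 27.6 CPM in P0 and between 11.3 and 16.4 CPM in all 6 later libraries. In WT hypoxia it was at 44.7 and 53.1 CPM in P0 and between 10.8 and 23.3 CPM later. The mean of later generations over P0 was -1.07 ± 0.21 in hrde-1, with an adjusted p of 0.00227, and -1.52 ± 0.21 in WT, with an adjusted p of 0.000164. The hrde-1 call was lost without P0 hrde-1 hypoxia replicate 1, at -0.94 with an adjusted p of 0.055, in a range of 0.000184 to 0.055. The WT call held in all 17 alternatives.

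cysl-3 in hrde-1 hypoxia was at 22.8 and 20.3 CPM in P0 and between 7.62 and 14.4 CPM later. In WT hypoxia it was at 30.4 and 29.2 CPM in P0 and between 11 and 19.3 CPM later, so no later library reached a P0 library in either strain. Both strains had a value of -0.98 ± 0.17, with adjusted p of 0.000959 in hrde-1 and 0.000894 in WT. cth-1 was at 40.4 and 29.1 CPM in P0 hrde-1 hypoxia and between 5.19 and 14.2 CPM later, a value of -2.03 ± 0.36 with an adjusted p of 0.0011. In WT hypoxia it was at 17.0 and 15.6 CPM in P0 and between 1.97 and 6.59 CPM later, a value of -2.08 ± 0.37 with an adjusted p of 0.0013. The cysl-3 and cth-1 calls in hypoxia held in all 17 alternatives in each strain.

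In normoxia cbs-1 was called in both strains. In hrde-1 normoxia it was at 41.4 and 46.7 CPM in P0, and at 28.3 and 21.8 CPM in F1, 31.2 and 21.2 CPM in F2 and 18.7 and 37.4 CPM in F3. In WT normoxia it was at 43.4 and 43.5 CPM in P0, 20.8 and 21.9 CPM in F1 and 25 and 29 CPM in F3. The value was -0.80 ± 0.22 in hrde-1, with an adjusted p of 0.0108, and -0.85 ± 0.23 in WT, with an adjusted p of 0.0056. cbs-1 was thus lower in later generations in both strains, and in hypoxia it had values of -0.48 ± 0.22 in hrde-1 and -0.55 ± 0.22 in WT that did not pass. The hrde-1 call was lost without P0 hrde-1 normoxia replicate 2, at -0.66 with an adjusted p of 0.193, and in a fit of hrde-1 normoxia alone, at -0.82 with an adjusted p of 0.181. The WT call held in all 14 alternatives, none of which could leave out the P0 WT normoxia group.

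cysl-2 also fell in hrde-1 normoxia, at 28.3 and 16.7 CPM in P0 and between 11.2 and 17.7 CPM later, so the groups overlapped. The value of -0.71 ± 0.22, with an adjusted p of 0.0224, rested on 1 library: without P0 hrde-1 normoxia replicate 1 it was -0.22 with an adjusted p of 0.593. It was lost as well without F1 hrde-1 normoxia replicate 1 (-0.66) and F2 hrde-1 normoxia replicate 2 (-0.65), and in a fit of hrde-1 normoxia alone (-0.73, adjusted p 0.221). In WT normoxia cysl-2 was at 33.0 and 29.4 CPM in P0, 24.2 and 14.9 CPM in F1 and 33.2 and 49.7 CPM in F3, with a value of -0.13 ± 0.23.

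ethe-1 fell in WT normoxia, at 9.53 and 10.2 CPM in P0, 4.26 and 4.84 CPM in F1 and 5.67 and 6.77 CPM in F3. Its value was -0.88 ± 0.22, with an adjusted p of 0.00272, and the call held in all 14 alternatives. None of them could leave out the P0 WT normoxia group, the base of this comparison. In the other 3 series ethe-1 lay between -0.32 and -0.16 and did not pass. sqrd-1 had -0.65 ± 0.26 in WT normoxia with an adjusted p of 0.0504, and DESeq2 called it, at -0.67 with an adjusted p of 0.0367. cth-1 rose in WT normoxia, at 3.70 and 6.15 CPM in P0, 9.47 and 7.33 CPM in F1 and 13.7 and 15.4 CPM in F3. The value was 1.17 ± 0.44, with an adjusted p of 0.0381. The call was lost without any 1 of 5 libraries, P0 WT normoxia replicate 1 (0.84) or 2 (1.51), F1 WT normoxia replicate 1 (1.13) and F3 WT normoxia replicate 1 (1.21) or 2 (1.18), and under the filter of 5 CPM, and the adjusted p reached 0.259. In hrde-1 normoxia cth-1 had 0.91 ± 0.44, which did not pass, but passed without F2 replicate 2 (1.16) or F3 replicate 1 (1.13). cth-2 was called in no series, with values between -0.51 and -0.02, though -0.51 in WT normoxia passed in a fit of WT normoxia alone (adjusted p 0.0262). cysl-1 was called in none either, with values between -0.59 and 0.68, and passed in WT normoxia without P0 WT normoxia replicate 1, at -0.97 with an adjusted p of 0.0156. In hrde-1 hypoxia it passed in the other direction in a fit of that series alone, at 0.70 with an adjusted p of 0.00678.

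Markers moved between P0 and later generations as well. Body wall muscle markers were called higher in later generations in 21 of 24 tests and sperm markers in 31 of 36. Neuronal markers were called lower in 11 of 32 tests and higher in 0, and cuticle and molting markers lower in 12 of 40 and higher in 1. Oocyte and eggshell markers were called higher in 13 of 44 tests and lower in 2, and intestine markers higher in 2 of 28 and lower in 1. The muscle markers summed to 2702 to 4084 CPM in the 8 P0 libraries and to 4939 to 13035 CPM in the later ones. Their part in the members' values was not tested.

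**Figure D4:**
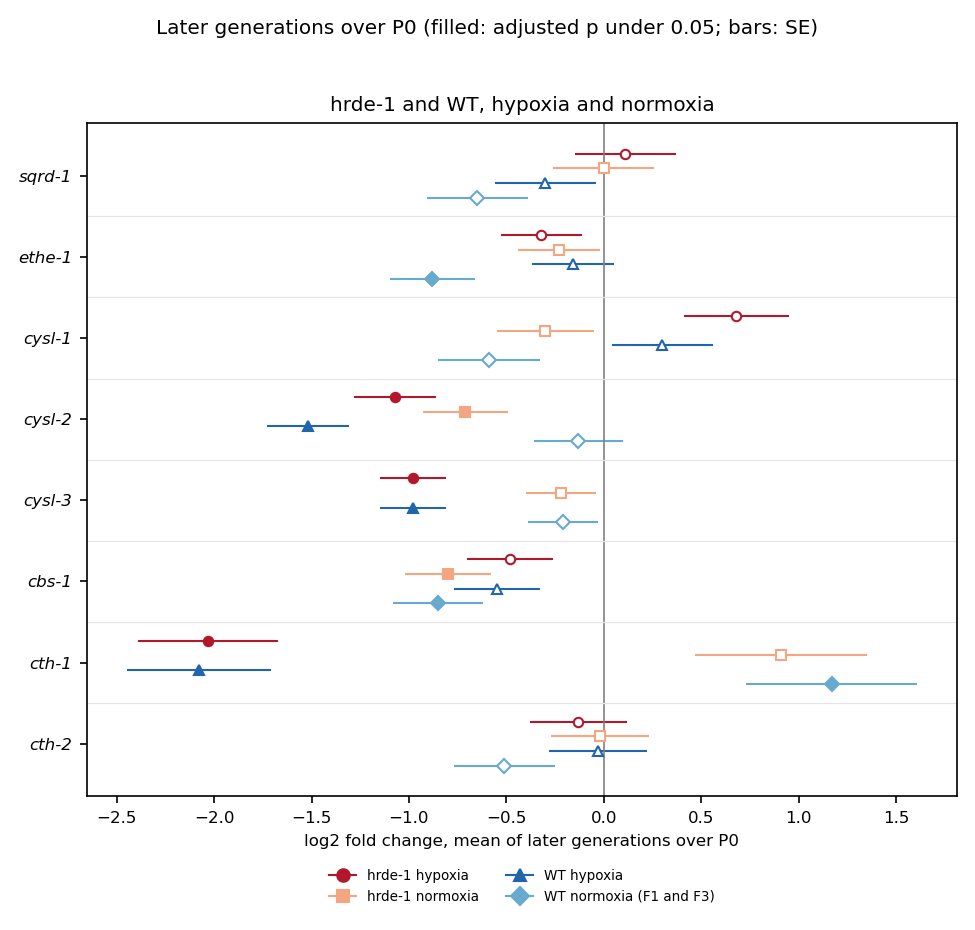
Log2 fold change of the mean of later generations over P0 for the 8 genes in the 4 series of groups. Bars are standard errors and filled markers have an adjusted p under 0.05. cth-1 lies near -2 in both hypoxia series and above 0 in both normoxia series, and only cth-2, cysl-1 and sqrd-1 have no filled marker.

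Other genes of sulfur amino acid metabolism were read from 6 lists of 32 genes. Of these 30 were in the table and 28 passed the filter on low counts. mpst-5 and mpst-6, sulfurtransferase genes of the mercaptopyruvate family, held identical values in 30 of 30 libraries, so although both are counted they are not independent.

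The methionine cycle makes the homocysteine used by cbs-1. In P0 hrde-1 hypoxia 2 of its 8 genes were called higher, beside 5.84% of all genes called in either direction, ahcy-1 (adenosylhomocysteinase, 0.59 ± 0.15) and metr-1 (methionine synthase, 0.51 ± 0.14). In P0 WT, where 41.9% of all genes were called, 5 of 8 were called higher, led by ahcy-1 at 1.27 ± 0.15 and metr-1 at 1.07 ± 0.14, and 1, sams-5, was called lower at -1.89 ± 0.57. ahcy-1 was at 1178 and 1287 CPM in P0 hrde-1 hypoxia, against 892 and 684 CPM in normoxia. It was at 1086 and 1001 CPM in P0 WT hypoxia, against 450 and 387 CPM in normoxia. gss-1, for glutathione synthase, was called higher in P0 WT at 0.51 ± 0.18. In F1 WT, beside 13.9% of all genes, 2 of 4 HIF-1 regulation genes were called. egl-9, the HIF-1 prolyl hydroxylase, was called lower at -0.94 ± 0.18 and hif-1 at -0.84 ± 0.16. In F3 WT hif-1 was called lower at -0.67 ± 0.16, beside 6.62% of all genes. In F2 WT it was at 132 and 121 CPM in hypoxia, against 199 and 212 CPM in the deposited normoxia columns, a difference of -0.79 ± 0.15 that was called, but the remainder held 130 and 133 CPM. The cysteine oxidation and molybdenum cofactor list had 1 call in 40 tests, moc-2, at -1.65 ± 0.38 in P0 hrde-1. mpst-4, mpst-5 and cbs-2 were called higher in F1 hrde-1, at 2.78 ± 0.71, 2.22 ± 0.38 and 3.14 ± 0.59, beside 8.35% of all genes. In that comparison 8 of 9 sperm markers and 5 of 6 body wall muscle markers were called higher too. The part of those cells was not tested.

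Between strains in hypoxia, the other sulfide oxidation and sulfurtransferase genes called were mpst-4, mpst-5 and mpst-6, each higher in hrde-1. Of 7 genes tested, 2 were called in P0, beside 2.14% of all genes, 3 in F2, beside 6.43%, and 3 in F3, beside 10.8%. The P0 calls were mpst-5 and mpst-6, which held identical values and so are 1 measurement. mpst-5 was at 3.68 and 1.89 CPM in P0 hrde-1 hypoxia, against 0.437 and 0.319 CPM in P0 WT hypoxia. That difference of 2.84 ± 0.46 rests on few reads in WT, so its size is uncertain. In F3 hypoxia it was at 11.3 and 11.2 CPM in hrde-1, against 2.00 and 3.11 CPM in WT, a difference of 2.15 ± 0.37. These calls were not particular to hypoxia. In P0 normoxia mpst-4, mpst-5 and mpst-6 were called higher in hrde-1, beside 22.5% of all genes. mpst-5 was there at 2.12 and 2.1 CPM, against 0.109 and 0.22 CPM in WT. In F2 normoxia mpst-5 and mpst-6 were called higher with the deposited columns, beside 6.06%. mpst-5 was there at 8.66 and 6.74 CPM in hrde-1, against 2.98 and 2.68 CPM, and the remainder held 2.32 and 0.863 CPM. The list had no call in F1 or F3 normoxia. In F2 and F3 hypoxia sperm markers were called higher in hrde-1 as well, 7 and 3 of 9, and their part was not tested. egl-9 was lower in hrde-1 in F1 normoxia (-1.15 ± 0.19), F3 normoxia (-0.92 ± 0.18) and F3 hypoxia (-0.67 ± 0.19). In F2 normoxia it was at 31.9 and 32.7 CPM in hrde-1, against 45.8 and 51.0 CPM in the deposited WT columns, a difference of -0.63 ± 0.18 that was called, but the remainder held 36.0 and 35.5 CPM. ahcy-1 was higher in hrde-1 in P0 normoxia (0.92 ± 0.15), F1 normoxia (0.50 ± 0.15) and F3 normoxia (0.51 ± 0.15). In F2 normoxia it was at 1323 and 1011 CPM in hrde-1, against 787 and 816 CPM in the deposited WT columns, a difference of 0.49 ± 0.14 that was called, and the remainder held 809 and 843 CPM. Of the 8 methionine cycle genes, 5 were called higher in P0 normoxia, beside 22.5% of all genes. In F1 normoxia, where 34.5% of all genes were called, 3 were higher and 1, sams-5, was lower (-2.26 ± 0.56). Both glutathione synthesis genes were called higher in that comparison, gss-1 at 0.64 ± 0.18 and gcs-1, for glutamate-cysteine ligase, at 0.47 ± 0.17.

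Over generations, cdo-1, for the cysteine dioxygenase that commits cysteine to oxidation, was called lower after P0 in all 4 series. In hrde-1 hypoxia it was at 15.5 and 14.5 CPM in P0 and between 5.19 and 10.2 CPM later, a value of -0.98 ± 0.20. In WT hypoxia it was at 15 and 14.7 CPM in P0 and between 5.31 and 8.68 CPM later, a value of -1.03 ± 0.20. The normoxia values were -1.30 ± 0.19 in hrde-1 and -1.25 ± 0.21 in WT. The other sulfide oxidation and sulfurtransferase list had 11 calls in 28 tests, 10 higher and 1 lower, beside 9.11% to 44.3% of all genes called. mpst-5 and mpst-6, which are 1 measurement, were called higher in all 4 series. mpst-5 in hrde-1 hypoxia was at 3.68 and 1.89 CPM in P0 and between 7.83 and 11.4 CPM later. In P0 WT normoxia it was at 0.109 and 0.22 CPM, few reads for a fold. mpst-4 was called higher in hrde-1 hypoxia and WT normoxia, and mpst-3 lower in WT normoxia. cbs-2, a paralog of cbs-1, was called higher after P0 in all 4 series, with 2.32 ± 0.49 in hrde-1 hypoxia, 2.57 ± 0.55 in hrde-1 normoxia and 2.63 ± 0.54 in WT hypoxia. In P0 WT normoxia cbs-2 was at 0.109 and 0.0549 CPM, too few reads for a fold against that group. Its level in F1 WT hypoxia was 19.6 and 16.8 CPM. cbs-1 was called lower in the 2 normoxia series and did not pass in the 2 hypoxia series. Of the HIF-1 regulation list, rhy-1, a regulator of HIF-1, was called lower in later generations in hrde-1 hypoxia, at -1.18 ± 0.33. vhl-1, whose product marks hydroxylated HIF-1 for degradation, was called lower in hrde-1 hypoxia (-0.95 ± 0.28) and WT normoxia (-1.20 ± 0.29). hif-1 itself was called higher in WT normoxia, at 0.34 ± 0.14. Of the 8 methionine cycle genes, 6 were called higher in WT normoxia, where 44.3% of all genes were called. In hrde-1 hypoxia, beside 18.4% of all genes, sams-5 was called higher (2.04 ± 0.48) and metr-1 lower (-0.35 ± 0.11).

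Across the 15 groups other than F2 WT normoxia, the members did not move as a unit. As a description of group means of log2(CPM + 1), Pearson's r was highest for cysl-2 with cysl-3, at 0.75, and lowest for cysl-1 with cth-2, at -0.46. sqrd-1 had r = 0.63 with cysl-1 and 0.50 with ethe-1, and the gamma-lyase pair cth-1 and cth-2 had 0.22. The genes most like cth-1 over these groups were argk-1, an arginine kinase gene (r = 0.907), hrg-1, a heme transporter gene (0.860), and F40F8.5 (0.828). Those most like cth-2 were clec-186 (0.957), kynu-1, for kynureninase (0.954), and C42D4.2 (0.950). Nearest to cysl-1 were his-71 (0.943), nhr-144 (0.940) and ajm-1 (0.936), and nearest to cbs-1 were C31B8.7 (0.946), dop-2 (0.914) and ilcr-1 (0.914). For cysl-2 they were seld-1 (0.845), fbxa-158 (0.836) and K09F6.6 (0.818), and for cysl-3 R11H6.6 (0.903), clec-222 (0.864) and T07C4.12 (0.835). For sqrd-1 they were fbxb-100 (0.885), fbxb-65 (0.879) and T01D1.8 (0.866), and for ethe-1 ttr-42 (0.844), Y69A2AL.2 (0.843) and sur-7 (0.825). These values describe likeness over 15 groups only.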

How the data were processed

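RNA of whole worms was read as poly(A) libraries, per the labels' protocols. Per the submitters' processing notes, cutadapt 2.5, Bowtie2, featureCounts, RSEM and edgeR were used. What each tool did, and the genome build, is not given in the sources used here. Estimated counts per gene, not normalized, were deposited by the authors. These expected counts were rounded to whole numbers before testing, where raw counts had been planned for. Gene identifiers were matched to the Ensembl annotation of WBcel235, where 46817 of 46904 (99.8%) were found.

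The members and lists were chosen with earlier results of these data known. The genes named are the 8 members, and from each other list up to 3 called genes with the largest log2 fold change in each kind of comparison, beside the 3 genes most like each member over groups. sqrd-2 and moc-4 of those lists matched no symbol and were not analysed here.

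Genes were tested with edgeR 4.0.16 (glmQLFit, then the quasi-likelihood glmQLFTest, in R 4.3.3) with TMM scaling, filterByExpr and 1 mean per group over 30 libraries of 15 groups. They covered 15536 genes, with Benjamini-Hochberg adjustment over all of them and a threshold of 0.05. Comparisons that need F2 WT normoxia used all 32 columns and 15537 genes. A standard error is |log2 fold change| divided by the root of the F statistic. The remainder is 3 times an F2 WT normoxia column less those of F1 and F3 with its replicate number, with totals of 12555703 and 11633862. The test script was tested on simulated data for hypoxia in P0 hrde-1, with a spread set slightly lower than in these data. With 100 of 14537 genes changed by each fold, none of them at few counts, it recovered 23% of 2-fold changes and 98% of 4-fold changes. A difference near 2-fold that did not pass is therefore no sign that a change was absent. Recovery with other shares of changed genes, or in other comparisons, was not simulated.

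Alternatives were DESeq2 size factors, DESeq2 1.42.0 (Wald test), no filter on low counts, at least 5 CPM in 2 libraries, a replicate block, all 32 columns, the remainder, the compared groups alone, and leaving out each library. Leaving out the P0 WT normoxia group was added after seeing the data. Where a library was left out, the lone library of its group was assumed to vary like the others. Counting depth limits sqrd-1 and cth-1 most.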

Additional observations from a re-analysis of the deposited data

Results flagged for a closer look

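The response of cth-1 to hypoxia differed between the later generations and P0 in both strains, by a test of that difference. In hrde-1 the later response minus the P0 response was -2.94 ± 0.59 on the log2 scale, with an adjusted p of 0.0161 by edgeR. In WT it was -3.04 ± 0.61, with an adjusted p of 0.00278. The P0 response was 3.22 in hrde-1 and 1.68 in WT, and the later responses were 0.79, -0.53 and 0.56 in F1, F2 and F3 of hrde-1 and -1.22 and -1.49 in F1 and F3 of WT.

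The response of cysl-2 differed in the same way in WT, by -1.10 ± 0.33, with an adjusted p of 0.0295. Its P0 response was 0.60, and its later responses were -0.11 in F1 and -0.90 in F3. All of these WT values use the P0 WT normoxia libraries, which stood apart in markers and in correlation, and the part of that in the difference was not tested.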

How the results depend on the processing

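Of 29 calls of members, 10 passed under every alternative run for them and 19 were lost under at least 1. The 10 were cysl-1 in P0 WT hypoxia, cth-2 between strains in F1 normoxia, ethe-1 and cbs-1 over generations in WT normoxia, cysl-2, cysl-3 and cth-1 over generations in WT hypoxia, cysl-3 and cth-1 over generations in hrde-1 hypoxia, and the change of the cth-1 response in WT. Among them, the calls of cysl-1, ethe-1, cbs-1 and the changed cth-1 response use the P0 WT normoxia libraries. Leaving that group out could not be run for these calls. DESeq2 kept all 29 calls, the replicate block 28, the absence of a filter 28 and the filter of 5 CPM 28. The fit of the compared groups alone kept 21 and the remainder 25. With the remainder, the difference of cysl-2 between strains in F2 normoxia was 0.00 in place of -1.03, because the columns themselves differ.

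Counts of calls moved by over 1.5 times with the compared groups alone and, for the interaction, with DESeq2. With the compared groups alone, hypoxia calls were 20 in place of 9, strain calls 13 in place of 6 (2 of them among the 6), and interaction calls 3 in place of 0. DESeq2 gave 1 interaction call. The cause of these shifts was not tested. With the P0 WT normoxia group left out, 3 hypoxia calls were made in the 7 comparisons that could still be run. A changed response was called in 1 case, in the 1 comparison that could be run. Of the 9 hypoxia calls of the main fit, 5 were in P0 WT, which could not be run. These totals are therefore not like for like with the main ones, and 17 of the 18 calls that could still be tested were kept. When libraries were left out singly, hypoxia calls ran from 6 to 12, strain calls from 4 to 8, interaction calls from 0 to 3, calls over generations from 10 to 12 and calls of a changed response from 2 to 5.

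With the replicate number as a block, calls were 8 for hypoxia, 6 for strain, 0 for the interaction, 11 over generations and 3 for a changed response. The labels do not say what a shared number means, each comparison holds 2 pairs, and correlations of same-numbered deviations ran from -0.21 to 0.551 over 14 comparisons, so pairing was not assumed. With 2 libraries a group, depth and spread leave changes of low genes such as sqrd-1 (29 to 153 counts a library) uncertain.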
